A study of Homo sapiens with 6 samples.

Results

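IGSF10 and other adhesion molecules of the immunoglobulin superfamily were followed in MDA-MB-231 cells, a line from a human breast tumor of the triple-negative (TNBC) subtype, after silencing of Sam68, the RNA-binding protein encoded by KHDRBS1. The set named 10 genes (IGSF10, IGSF3, IGSF8, MCAM, L1CAM, BCAM, ICAM1, CADM1, F11R and JAM3), and a locus belonged to it when its symbol, or 1 of its joined symbols, was 1 of these names. The genes were chosen with the difference between si-SAM68 and si-CTRL cells already known, so that their differences are described below and were not tested. Of the 10 genes, 9 had a row among the 74852 loci of the table, all of which reached the minimum for testing (a mean of 10 over the 6 libraries), and MCAM was not analysed here.

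The si-CTRL group (3 libraries) received control siRNAs as a pool, and the si-SAM68 group (3 libraries) received 4 pooled siRNAs that target SAM68. By the labels both groups went through 2 rounds of transfection and were harvested 24 h after the second. The methods of the paper count the harvest time from transfection without naming the round. Polyadenylated RNA was sequenced, and each value is a normalized read count, the number of reads on a locus divided by the size factor of its library. A single cell line was used, and nothing in the labels says that the replicates came from separate cultures, so that p-values measure only the spread between these libraries, which may be technical. In RNA from whole cultures, fewer cells that express a gene and less RNA per cell cannot be told apart.

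The immunoglobulin superfamily is a large group of proteins that share a compact fold of paired beta sheets first seen in antibodies. Many of its members stand on the cell surface and hold cells to each other or to the matrix by binding a like molecule, another family member or an integrin, and several are released from the surface by ADAM proteases. In epithelial and tumor cells they are known for their roles in junctions, migration and contact with leukocytes. IGSF10 differs from the others, being a very large protein with leucine-rich repeats and many immunoglobulin domains that is known for its part in the migration of neurons during development.

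The siRNAs are shown first, since the bases of a guide strand that pair with a transcript can be searched for in the members. Capitals mark bases 12 to 18 of the sense strand, which are the bases a transcript must hold to pair with bases 2 to 8 of the guide, the seed. Each of the 4 sense strands was found whole in the coding part of the KHDRBS1 transcript.
SAM68 siRNA 1: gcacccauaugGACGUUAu
SAM68 siRNA 2: gaaagagcgagUGCUGAUa
SAM68 siRNA 3: uaugauggaugAUAUCUGu
SAM68 siRNA 4: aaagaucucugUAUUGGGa

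Matches of 7 bases to these seeds (GACGTTA for siRNA 1, TGCTGAT for siRNA 2, ATATCTG for siRNA 3 and TATTGGG for siRNA 4, on the sense strand of the transcript only, with overlaps between motifs allowed) were counted in the longest GENCODE transcript of each member. In the 3′UTR, IGSF3 held 4 matches, CADM1 held 3, and ICAM1 and JAM3 held 1 each, while IGSF10, IGSF8, BCAM, L1CAM and F11R held 0. At least 1 such match was present in 25.8% of the 3′UTRs of 19003 genes. In the coding sequence, IGSF10 held 2 matches and JAM3 held 1, and such a match was present in 26.6% of 19644 coding sequences. Neither share is adjusted for length. The 2 sites of IGSF10 are printed because this gene has the largest difference of the set, together with the site of the longest unbroken run in IGSF3 and the single 3′UTR sites of ICAM1 and JAM3. Capitals mark the bases of the match, and positions count from the start of the transcript.
IGSF10, coding, 2482 to 2488, siRNA 3: actccagaacaATATCTGatagtcctatga
IGSF10, coding, 7511 to 7517, siRNA 3: cagaggaaactATATCTGtaaggctcaaaa
IGSF3, 3′UTR, 6804 to 6810, siRNA 4: tgtgtattttgTATTGGGctgggggatagc
ICAM1, 3′UTR, 2280 to 2286, siRNA 4: aacttgctgccTATTGGGtatgctgaggcc
JAM3, 3′UTR, 1607 to 1613, siRNA 2: cttaaaggctcTGCTGATcggtgttgcagt

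Counting the bases beyond the seed, 10 of the 19 bases of siRNA 3 matched at each of the 2 sites in IGSF10, and the longest stretch that any SAM68 siRNA shared with the IGSF10 transcript was 11 bases, with siRNA 2. For the control pool, the longest stretch shared with IGSF10 was 12 bases, and its coding sequence held 4 seed matches, against 2 for the SAM68 pool. The site in IGSF3 matched 11 of 19 bases, with an unbroken run of 9. In the 3′UTR the control pool had a seed match in 49.4% of genes, and in IGSF10 (1 match), IGSF3 (6), CADM1 (4), F11R (3) and JAM3 (1), and in the coding sequence in 28.5% of genes. The part of either pool's seeds in the levels given here was not tested.

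The 6 libraries held between 52625492 and 82568487 reads on the listed loci. A locus of rRNA held 15.1% of the reads of si-SAM68 replicate 2 and 1.83% to 3.17% of those of the others. KHDRBS1 itself was at 15660, 14483 and 14737 in the si-CTRL libraries and at 583, 602 and 670 in the si-SAM68 libraries, with 4.13% of the mean remaining (log2 fold change -4.60, standard error 0.083, limma adjusted p = 2.13e-09). Of the markers of a mesenchymal and basal line, VIM, CD44, EGFR and ZEB1 were all present, with a sum, mostly VIM, of 204000 to 251100 in si-CTRL and 205500 to 212200 in si-SAM68 libraries. ZEB1, a transcriptional repressor of epithelial genes, fell from 5146 ± 762 to 3314 ± 384 (SD, n = 3, log2 fold change -0.63, limma adjusted p = 0.0118). The call held in 14 of 16 alternatives and was lost without si-SAM68 replicate 1 and without the trend of the limma fit. VIM, CD44 and EGFR did not pass. The part of ZEB1 in the results was not tested. The sum of 5 luminal and epithelial markers was 349 to 552 in si-CTRL and 385 to 438 in si-SAM68 libraries. Most of it was GATA3, a luminal transcription factor, at 427 ± 107 and 384 ± 27.0 (SD, n = 3, limma adjusted p = 0.669), whereas CDH1 and EPCAM, the defining epithelial adhesion genes, stayed below 10 in every library and PGR was at 0. Of 6 endothelial markers, KDR and TEK were at 0 and all were under 50, with a sum of 49.4 to 76.2 in si-CTRL and 31.3 to 35.8 in si-SAM68 libraries, and the part of this lower sum in the results was not tested. The sum of 4 leukocyte markers was 8.75 to 19.4 in si-CTRL and 6.70 to 16.6 in si-SAM68 libraries, while CD68, which shares a locus with 5 other symbols (EIF4A1 among them), was left out.

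Across the 9 genes, 5 were lower and 4 were higher in si-SAM68 cells, with a median log2 fold change of -0.23 against 0.005 over the 18849 tested loci. The groups did not overlap for 3 genes that were lower (IGSF10, ICAM1 and CADM1) and 2 that were higher (F11R and L1CAM), and they overlapped for the other 4. Over all tested loci, the groups did not overlap for 33.9%. A fold change of at least 1.5 was reached by IGSF10, ICAM1 and F11R, and by 11.4% of all tested loci. Since the genes were picked on this contrast, nothing is read from these shares.

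**Figure D1:**
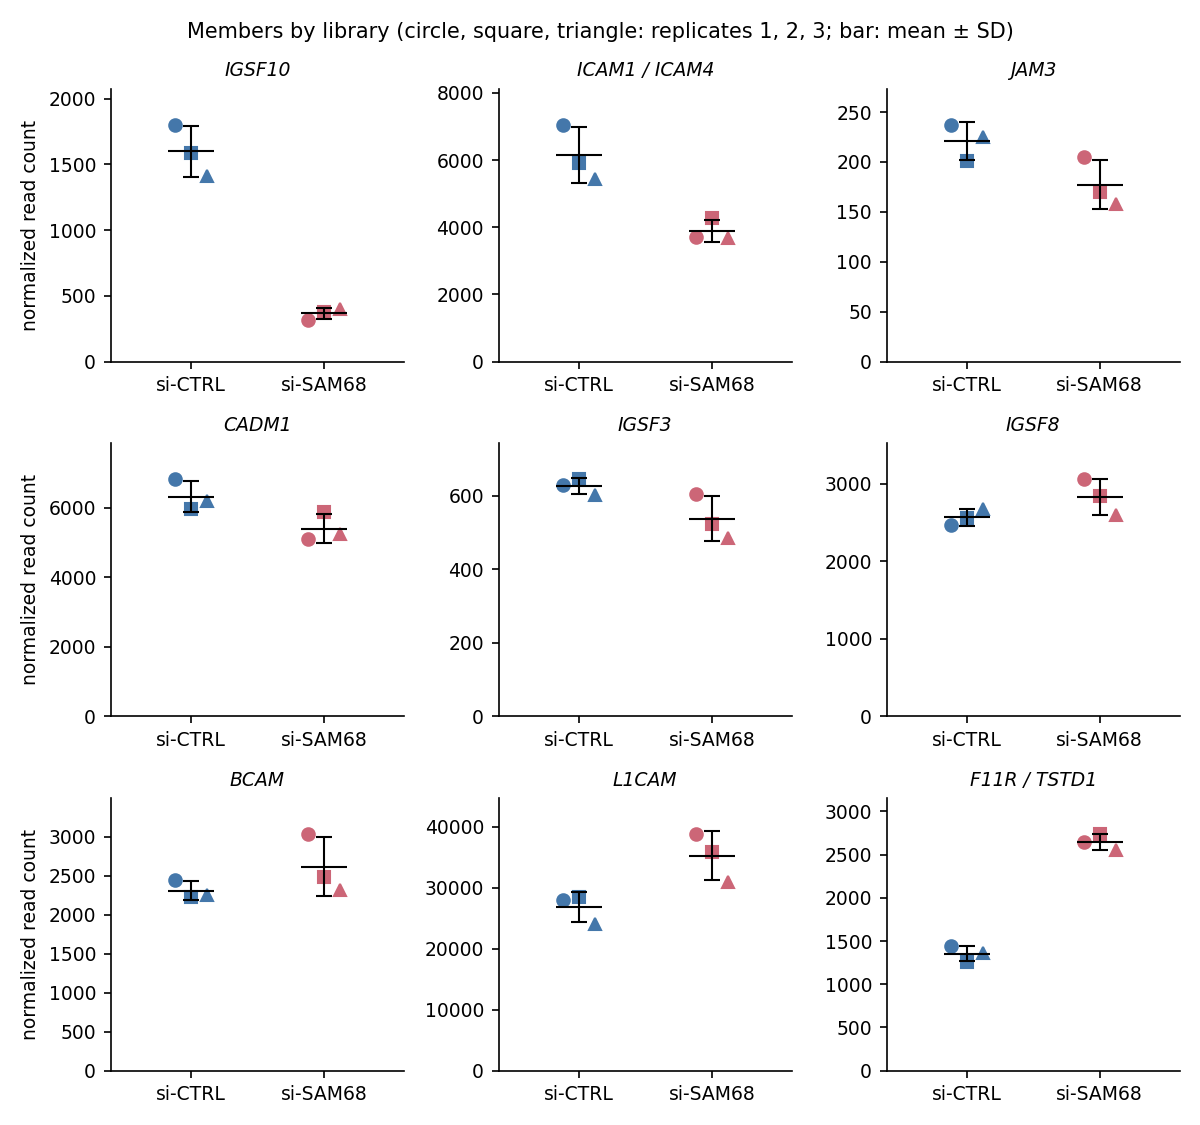
Normalized read count (y axis, from 0, a scale for each gene) of the 9 genes in the 3 si-CTRL and 3 si-SAM68 libraries, with circles, squares and triangles for replicates 1, 2 and 3 and a black bar for the mean ± SD. IGSF10 lies between 1412 and 1802 in si-CTRL and between 319 and 402 in si-SAM68 libraries, whereas the points of IGSF3, IGSF8, BCAM and JAM3 overlap between the groups.

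IGSF10 was the member with the largest difference. The locus lies on chromosome 3 of hg19, chr3:151153778-151176501, and its longest transcript in GENCODE has 11067 bases in 6 exons, of which 7872 are coding. In the order of replicates 1, 2 and 3, its normalized read count was 1802, 1584 and 1412 after si-CTRL and 319, 377 and 402 after si-SAM68 transfection, and the same order holds for all later values. All si-SAM68 libraries were thus far below all si-CTRL libraries, the lowest control being 3.51 times the highest si-SAM68 value. The means were 1599 ± 196 (SD, n = 3) and 366 ± 42.5 (SD, n = 3), so that 22.9% of the control level remained, a log2 fold change of -2.12 with a standard error of 0.124. Only 18 of the 18849 tested loci had a more negative log2 fold change. Within the pairs of equal replicate number, the ratio of si-SAM68 to si-CTRL was 0.177, 0.238 and 0.285. The values rest on 1442 to 1635 reads in the control and 317 to 410 reads in the si-SAM68 libraries.

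MED12L, a component of a Mediator module, overlaps the end of the IGSF10 locus by 688 bases, and its level was 840 ± 44.5 (SD, n = 3) with si-CTRL against 802 ± 60.0 (SD, n = 3) with si-SAM68. Its log2 fold change was -0.07 (standard error 0.097, limma adjusted p = 0.700). The 2 coding matches to the seed of siRNA 3 in IGSF10 lie in a long coding sequence of 7872 bases. At least 1 was held by 7.19% of coding sequences, a share not adjusted for length. The part of these matches in the lower level was not tested.

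ICAM1, the endothelial and tumor cell receptor of leukocyte integrins, was lower as well, in a locus of the table that joins it with ICAM4 (chr19:10329394-10399260). The joined locus was at 7059, 5928 and 5439 in si-CTRL and at 3713, 4266 and 3690 in si-SAM68 libraries. The lowest control library was above the highest si-SAM68 library by a ratio of 1.28. The means were 6142 ± 831 (SD, n = 3) and 3890 ± 326 (SD, n = 3), which is 63.3% of control and a log2 fold change of -0.65 with a standard error of 0.107. Reads of ICAM1 and ICAM4 cannot be told apart in this locus, and its span also covers MRPL4 and S1PR2. MRPL4, a mitochondrial ribosomal protein gene, had a log2 fold change of 0.03 (limma adjusted p = 0.873), whereas S1PR2, a receptor of sphingosine 1-phosphate, rose from 788 ± 22.3 to 1089 ± 57.6 (SD, n = 3, log2 fold change 0.47, limma adjusted p = 0.0113). The joined locus was thus lower in si-SAM68 cells, while S1PR2 inside its span was higher.

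F11R, which encodes the junctional adhesion molecule JAM-A of tight junctions, was the member with the largest difference upward. It shares a locus with TSTD1 (chr1:160965001-161008784). This locus was at 1440, 1263 and 1362 in si-CTRL and at 2646, 2743 and 2548 in si-SAM68 libraries. No si-SAM68 library came near the controls, the lowest being 1.77 times the highest control. The means of 1355 ± 88.6 and 2646 ± 97.5 (SD, n = 3 each) differed 1.95-fold, a log2 fold change of 0.97 with a standard error of 0.084, and 261 tested loci had a more positive one. How much of the level belongs to TSTD1 cannot be told from the joined locus. USF1, whose locus begins beyond a gap of 256 bases, was at 2487 ± 235 and 2360 ± 110.5 (SD, n = 3, limma adjusted p = 0.652).

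JAM3, which encodes JAM-C, the relative of JAM-A that binds a leukocyte integrin and JAM-B, went the other way and was the member with the fewest reads (chr11:133938820-134021652). It was at 237, 200 and 225 in si-CTRL and at 205, 170 and 158 in si-SAM68 libraries. The groups overlapped, since si-SAM68 replicate 1 was above si-CTRL replicate 2. Within pairs of equal number the ratios were 0.861, 0.849 and 0.699. The labels number the replicates but do not pair them, so that the overlap stands. The log2 fold change was -0.32 with a standard error of 0.145, the widest of the 9 genes.

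L1CAM, a neural adhesion molecule that is anchored to ankyrins and cleaved by ADAM10, had the highest counts of the set (chrX:153126969-153151628). Its normalized read count was 28047, 28407 and 24088 in si-CTRL and 38866, 35922 and 30886 in si-SAM68 libraries. The groups did not overlap, but the lowest si-SAM68 library exceeded the highest control by a ratio of 1.09 only. The means were 26847 ± 2397 and 35225 ± 4036 (SD, n = 3 each), 131% of control, with a log2 fold change of 0.39 and a standard error of 0.102. Within pairs of equal number the ratios were 1.39, 1.26 and 1.28.

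CADM1, a nectin-like molecule known as a tumor suppressor in epithelia, was slightly lower (chr11:115039956-115375241). It was at 6820, 5950 and 6186 in si-CTRL and at 5086, 5865 and 5237 in si-SAM68 libraries. The highest si-SAM68 library (replicate 2, the library with the large share of rRNA) was just below the lowest control, so that the groups were separated by a ratio of 1.01. The mean was 6319 ± 450 in control and 5396 ± 413 in si-SAM68 cells (SD, n = 3 each), with a log2 fold change of -0.23 and a standard error of 0.086. With 1 library left out it ranged from -0.29 (without si-SAM68 replicate 2) to -0.17 (without si-CTRL replicate 1).

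The remaining members overlapped between the groups. IGSF3, a member of the EWI proteins (chr1:117117021-117210377), was at 630, 645 and 603 in si-CTRL and at 604, 522 and 485 in si-SAM68 libraries, a log2 fold change of -0.23 with a standard error of 0.109. Here si-SAM68 replicate 1 lay within the control range and the other si-SAM68 libraries below it. IGSF8, the EWI protein that binds the tetraspanins CD9 and CD81 (chr1:160061129-160068619), was at 2463, 2554 and 2674 in si-CTRL and at 3060, 2841 and 2598 in si-SAM68 libraries, a log2 fold change of 0.14 with a standard error of 0.086. In its case si-SAM68 replicate 3 lay within the control range. BCAM, a laminin receptor that carries the Lutheran blood group (chr19:45312316-45324677), was at 2450, 2221 and 2256 in si-CTRL and at 3040, 2485 and 2320 in si-SAM68 libraries. Its log2 fold change of 0.17, with a standard error of 0.107, rested on si-SAM68 replicate 1, since it was 0.06 without that library. Within pairs of equal number, the ratios were 0.960, 0.810 and 0.804 for IGSF3 and 1.24, 1.11 and 0.972 for IGSF8. Those of BCAM were 1.24, 1.12 and 1.03.

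**Figure D2:**
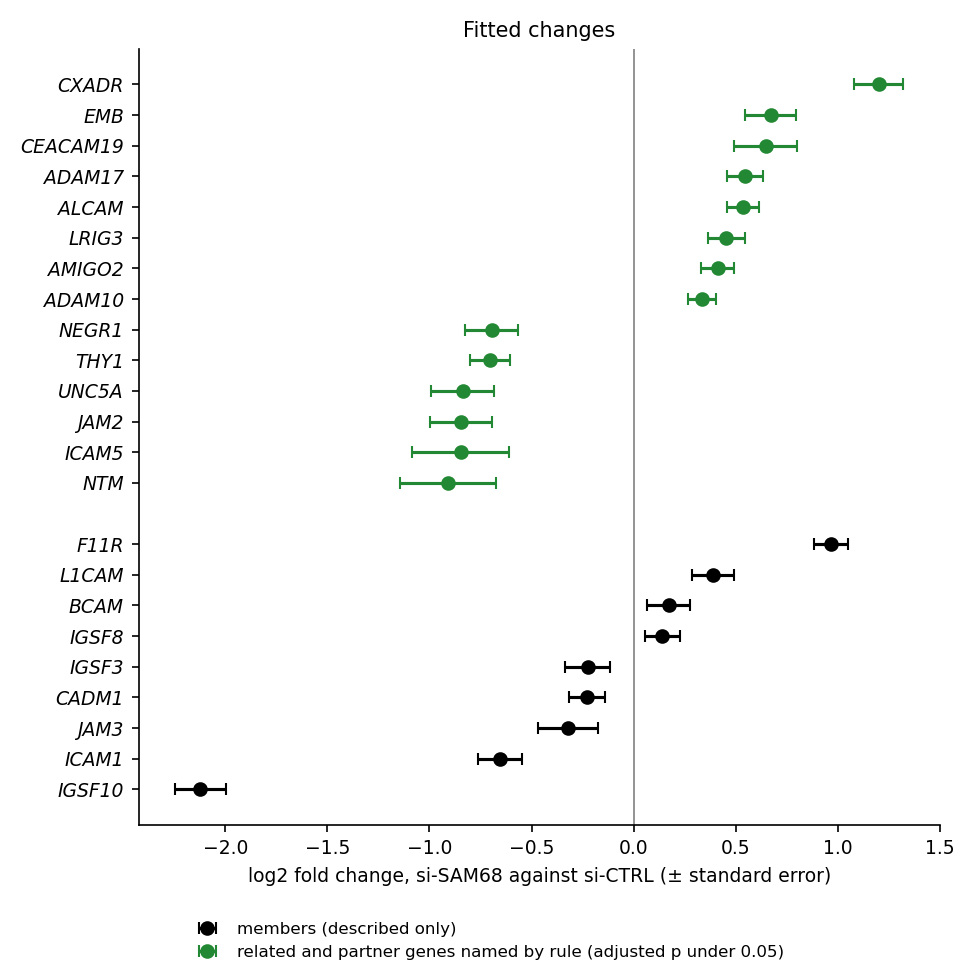
Fitted log2 fold change of si-SAM68 against si-CTRL (x axis, points, with bars for the standard error) of the 9 members in black and of the related and partner genes named by rule in green. IGSF10 stands at -2.12 and F11R at 0.97, and the other members lie between -0.65 and 0.39.

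Over 16 alternative ways of processing, the sign of the log2 fold change of each of the 9 members was that of the fit reported here. The replicate block, the other filters and the fit without the trend leave the log2 fold change as it is by construction. The log2 fold change of IGSF10 ranged from -2.21 to -2.03, that of ICAM1 from -0.74 to -0.55, that of F11R from 0.92 to 1.01 and that of L1CAM from 0.31 to 0.48.

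The spread between libraries of a group was small beside the differences of IGSF10 and F11R and similar to those of BCAM and JAM3. The coefficient of variation in si-CTRL ran from 3.43% for IGSF3 to 13.5% for the ICAM1 locus, with 12.2% for IGSF10. In si-SAM68 cells it ran from 3.69% for F11R to 14.4% for BCAM.

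To place the genes in an order of level, normalized read counts were divided by the length of the longest transcript, which gives normalized reads per kilobase (kb). In si-CTRL cells L1CAM was highest at 5222 ± 466 reads per kb (SD, n = 3), followed by ICAM1 at 1889 ± 256 and IGSF8 at 1084 ± 44.7. Next came CADM1 at 736 ± 52.4 and BCAM at 676 ± 36.1, neighbours whose ranges overlapped and whose order is not settled. F11R at 280 ± 18.3, IGSF10 at 144.5 ± 17.7, IGSF3 at 85.4 ± 2.93 and JAM3 at 56.5 ± 4.82 closed the order. ICAM1 and F11R stand for loci joined with ICAM4 and TSTD1, divided by the ICAM1 or F11R length alone, so their places are not settled. As counted, IGSF10 was 1 of the 3 lowest members per length already in control cells.

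**Figure D3:**
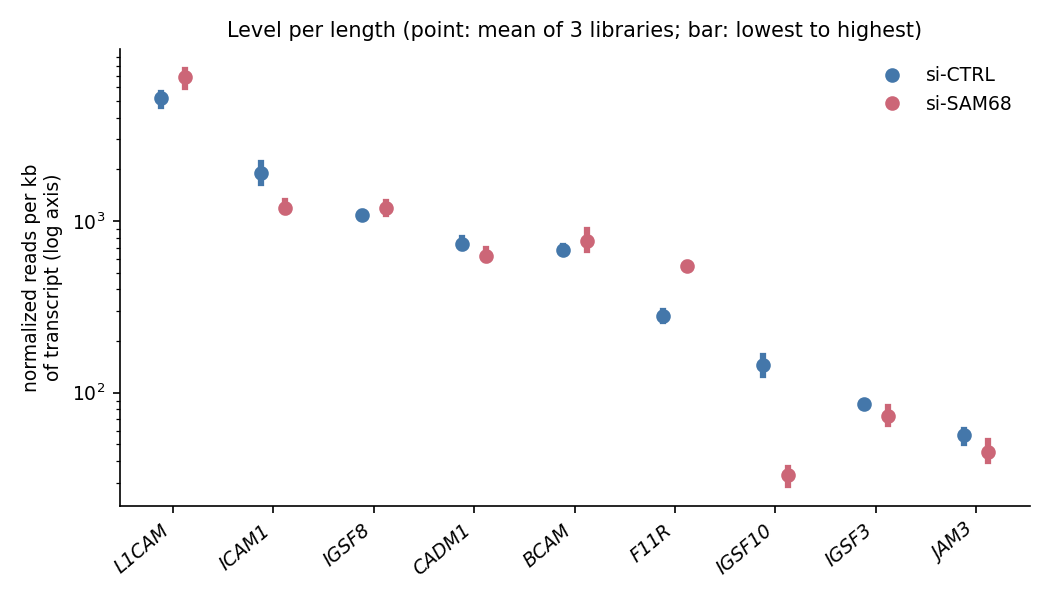
Level of the 9 members in normalized reads per kb of longest transcript (y axis, log scale) in si-CTRL (blue) and si-SAM68 (red) libraries, as the mean of 3 libraries (point) and the lowest to highest value (bar). IGSF10 goes from 144.5 to 33.1 reads per kb and from rank 7 to rank 9, and L1CAM is highest in both groups. ICAM1 and F11R stand for loci joined with ICAM4 and TSTD1.

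In si-SAM68 cells L1CAM stayed first at 6852 reads per kb, and IGSF8 (1197) and ICAM1 (1196) stood side by side. IGSF10 moved to the last rank at 33.1 ± 3.84 (SD, n = 3), below JAM3 at 45.4 ± 6.22. The order depends on the length used: per kb of coding length IGSF10 was at 203.1 ± 24.9 in si-CTRL cells and ranked 8 of 9, and CADM1, with a long 3′UTR, ranked 2.

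The loci whose profile over the 6 libraries was most like that of IGSF10 were looked up by the root mean square difference of log2 values after centring on the si-CTRL mean, among 12927 loci with a symbol and a mean of at least 50. The nearest was PIK3AP1, an adaptor of phosphoinositide 3-kinase, at a distance of 0.114 (median over all loci 1.51). It was at 329, 312 and 279 in si-CTRL and at 71.5, 67.2 and 72.6 in si-SAM68 libraries. The next were SIRPB1 at a distance of 0.183, the non-coding locus DIRC3 at 0.191, BTBD1 at 0.237 and GABBR2, a subunit of the GABA type B receptor, at 0.271. SIRPB1, which itself encodes a cell surface protein of the immunoglobulin superfamily, was at 2606, 1682 and 2034 in si-CTRL and at 417, 588 and 548 in si-SAM68 libraries. The likeness is set largely by the contrast itself and is a description of these 6 libraries.

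**Figure D4:**
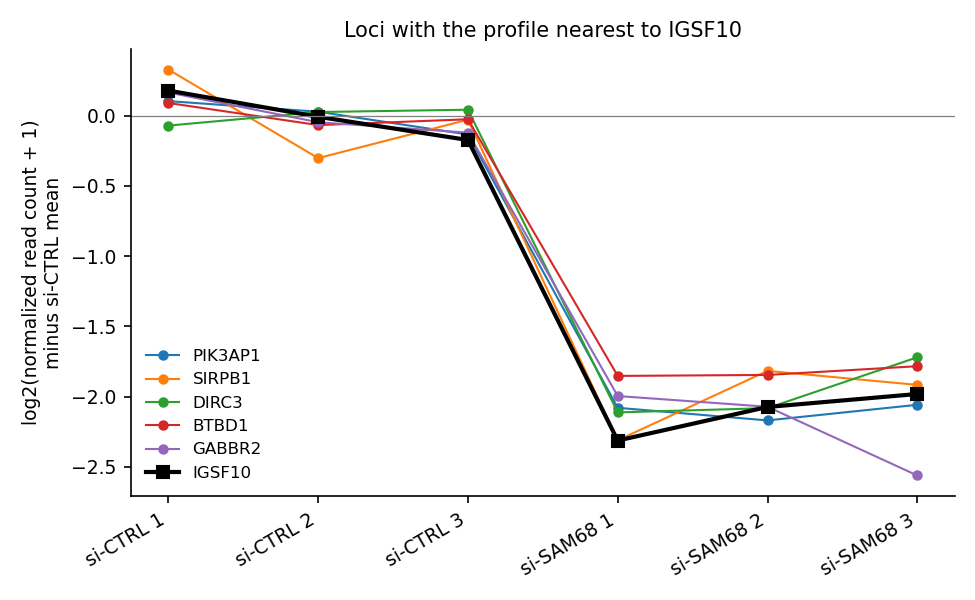
Profile of IGSF10 (black squares) and of the 5 loci nearest to it, as log2(normalized read count + 1) minus the si-CTRL mean (y axis) in each library (x axis). All 6 lines stay near 0 in si-CTRL libraries, and IGSF10 lies at -2.31, -2.07 and -1.98 in si-SAM68 libraries.

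Relatives outside the set were read from a list of 116 adhesion and guidance genes with immunoglobulin domains, none of them a member. Of these, 70 were tested, 29 were below the minimum and 17 were at 0 in all libraries. At an adjusted p under 0.05, 11 were lower and 8 were higher in si-SAM68 cells, which is 15.7% and 11.4% of those tested, and 51 did not pass. Over all loci these shares were 6.23% and 4.47%. Each class named below holds few genes, and nothing is read from its count. With the thresholds of the study (unadjusted p up to 0.05, at least a 1.5-fold change) put on the limma fit, 14 were lower and 3 higher. These are 20.0% (against 4.83% of all loci) and 4.29% (against 2.83%). The calls of the paper come from its own analysis and were not compared. The median log2 fold change of the 70 genes was -0.17, with 46 below 0. Over the 18849 tested loci the median was 0.005, with 9258 below 0. With the replicate number as a block, the counts at an adjusted p under 0.05 were 8 lower and 8 higher.

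Among the relatives of the JAM proteins, CXADR, the receptor of coxsackieviruses and adenoviruses at tight junctions, rose most. It was at 184, 179 and 162 in si-CTRL and at 417, 423 and 370 in si-SAM68 libraries, without overlap (log2 fold change 1.20, standard error 0.121, limma adjusted p = 0.000681). JAM2, which encodes JAM-B, the partner of JAM-C, fell from 399, 296 and 314 to 200.5, 196 and 162 (log2 fold change -0.84, limma adjusted p = 0.00881), and the adjusted p was 0.054 without si-SAM68 replicate 3. In this class of 8 tested genes, 1 (CXADR) was called higher and 2 (JAM2 and VSIG10) lower at an adjusted p under 0.05. Over all loci 4.47% were called higher and 6.23% lower. The F11R locus (joined with TSTD1) and CXADR were higher in si-SAM68 cells and JAM2 lower, while JAM3 was lower with groups that overlapped. F11R and JAM3 are members and were not tested, and no pattern of the family is read from these genes.

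Near the ICAM1 locus, ICAM5, a neuronal ICAM that begins 1394 bases beyond it, was at 106, 80.4 and 135 in si-CTRL and at 68.5, 61.6 and 45.8 in si-SAM68 libraries. Its adjusted p of 0.0494 (limma, log2 fold change -0.85) was under 0.05 in 5 of 16 alternatives, was 0.079 with the replicate number as a block, and was lost with any library left out other than si-CTRL replicate 2 (0.057 to 0.186). ICAM3, the ICAM of resting leukocytes, had a log2 fold change of -0.13 (limma adjusted p = 0.362).

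ALCAM, a homophilic adhesion molecule and a relative of BCAM, rose from 11217, 9770 and 9776 to 14733, 14907 and 14845 (log2 fold change 0.54, limma adjusted p = 0.00332). It was under 0.05 in 16 of 16 alternatives. THY1, a small glycolipid-anchored protein of mesenchymal cells and neurons, fell from 4962, 4423 and 4247 to 3145, 2668 and 2567 (log2 fold change -0.70, limma adjusted p = 0.00288), also in 16 of 16. EMB, a basigin relative that escorts monocarboxylate transporters, rose (log2 fold change 0.67, limma adjusted p = 0.0101). Its limma adjusted p was 0.067 without si-SAM68 replicate 3 and 0.054 without the trend.

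Of the nectins and nectin-like genes, to which CADM1 belongs, 6 were tested and NECTIN3 passed (log2 fold change 0.33, limma adjusted p = 0.0465), a gene outside the rule for names that was chosen after its values were seen. Its adjusted p was under 0.05 in 9 of 16 alternatives, and the call was lost without si-CTRL replicate 2 or any 1 si-SAM68 library (highest adjusted p 0.186). PVR, the poliovirus receptor, was at -0.22 (limma adjusted p = 0.183). NRCAM and NFASC, the tested relatives of L1CAM, did not pass the adjusted threshold, at log2 fold changes of -0.18 and -0.68 (limma adjusted p = 0.517 and 0.122). NFASC did meet the thresholds of the study in the limma fit, with a control mean 1.62 times that of si-SAM68 cells (limma unadjusted p = 0.0242). PTGFRN, the tested EWI protein outside the set, was at 0.32 (limma adjusted p = 0.0633).

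Large matrix proteins with immunoglobulin domains gave 0 calls among 4 tested (HMCN1, HMCN2, PXDN and PAPLN) with limma, edgeR and DESeq2. With limma, 0 of them were at an unadjusted p under 0.05. HMCN1 passed without si-CTRL replicate 2. Over all loci limma called 6.23% lower and 4.47% higher, so that nothing is read from 0 calls among 4. HMCN1, a hemicentin of basement membranes, was at 0.33 (limma adjusted p = 0.288), and PXDN, a peroxidase that crosslinks collagen, at -0.18 (limma adjusted p = 0.485). MXRA5, like IGSF10 a large protein with leucine-rich repeats and immunoglobulin domains, stayed below 4 in every library and was not tested.

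Of 6 tested genes of the NCAM, contactin and IgLON class, 2 passed the adjusted threshold (limma), both lower (6.23% of all loci were). These were NEGR1 and NTM, glycolipid-anchored IgLON proteins of neurons (log2 fold changes -0.69 and -0.91, limma adjusted p = 0.0104 and 0.0364). That of NEGR1 was 0.053 without si-SAM68 replicate 3. That of NTM was under 0.05 in 9 of 16 alternatives, was 0.072 with the replicate number as a block, and was lost without si-CTRL replicate 1 or 3 or si-SAM68 replicate 1 or 3 (0.051 to 0.122). UNC5A, a netrin receptor, fell from 492, 454 and 445 to 318, 263 and 208 (log2 fold change -0.84), past the adjusted threshold in limma and in 16 of 16 alternatives. Of 4 neural markers, 2 were under 50 in every library, and the sum of the 4 was 120 to 163 in si-CTRL and 93.8 to 120 in si-SAM68 libraries. The part of these levels in the calls was not tested.

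Proteins with leucine-rich repeats and immunoglobulin domains, a build that IGSF10 shares, gave 3 higher and 2 lower calls among 12 tested. Among all loci, 4.47% were called higher and 6.23% lower. LRIG3 and AMIGO2 rose (log2 fold changes 0.45 and 0.41, limma adjusted p = 0.0136 and 0.0129). The adjusted p of LRIG3 was 0.055 and 0.074 without si-SAM68 replicates 1 and 2. That of AMIGO2 was 0.072 without si-SAM68 replicate 3 and 0.063 without the trend (limma). LRIG2 rose as well (log2 fold change 0.38, limma adjusted p = 0.0281), in 10 of 16 alternatives and not with the replicate number as a block (0.052) or without si-CTRL replicate 2 or 3 or si-SAM68 replicate 2 or 3. LINGO1 and LRRC4, synaptic and neuronal surface proteins with means below 50, fell (log2 fold changes -0.98 and -1.88, limma adjusted p = 0.0267 and 0.0167). The call of LINGO1 held in 8 of 16 alternatives and was lost with any 1 library left out, and that of LRRC4 held in 12 and was lost without si-CTRL replicate 3 or si-SAM68 replicate 3. LRIG2, LINGO1 and LRRC4 are outside the rule for names and were chosen after their values were seen. In the CEACAM and PECAM class, CEACAM19 rose from low counts (log2 fold change 0.65, limma adjusted p = 0.0267), and its adjusted p was under 0.05 in 10 of 16 alternatives, being lost with any library left out other than si-CTRL replicate 1 (0.061 to 0.0997).

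Known partners of these molecules were read in the same way. From a list of 25 anchors, scaffolds, tetraspanins, sheddases and ligands, 23 were tested, with a median log2 fold change of 0.004. At an adjusted p under 0.05, 2 were higher (8.70%, against 4.47% of all loci) and 0 were lower with limma. At an unadjusted p under 0.05 (limma) there were 4 lower and 4 higher. The share of all loci under that p was not counted, so that nothing is read from this. At the adjusted threshold edgeR called 0 partners lower, and DESeq2 called 2 lower (CD82 and MPP3). Among all loci, in either direction, edgeR called 2026 and DESeq2 2789.

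Both partners called higher at the adjusted threshold were sheddases, proteases that cut adhesion molecules from the surface. ADAM17 was at 1784, 1551 and 1513 in si-CTRL and at 2275, 2384 and 2398 in si-SAM68 libraries (log2 fold change 0.55, standard error 0.089, limma adjusted p = 0.00574). ADAM10, the sheddase of L1CAM, was at 6153, 6347 and 6446 in si-CTRL and at 7878, 8238 and 7804 in si-SAM68 libraries (log2 fold change 0.34, standard error 0.069, limma adjusted p = 0.0156). All si-SAM68 libraries were above all controls for both genes. The limma adjusted p of ADAM10 was 0.051, 0.094 and 0.060 without si-SAM68 replicates 1, 2 and 3, and 0.061 without the trend. BACE1, the third sheddase of the list, was at -0.27 (limma adjusted p = 0.183).

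Of 11 tested anchors and scaffolds that hold these proteins in place, 0 passed the adjusted threshold with limma or edgeR and 1 (MPP3) with DESeq2. With limma, 3 were at an unadjusted p under 0.05, again without a share over all loci. At the adjusted threshold limma called 6.23% of all loci lower and 4.47% higher. MPP3, a junction scaffold, had a log2 fold change of -0.47 (limma adjusted p = 0.0628, and 0.041 with the replicate number as a block) and was under 0.05 in 4 of 16 alternatives. ANK2, an ankyrin, was at -0.43 (limma adjusted p = 0.0651) and passed in 1 alternative, without the trend. ANK3, EZR and TJP1 passed only without si-CTRL replicate 1. Moesin (MSN), which binds the tails of ICAM1 and L1CAM, was at -0.16 (limma adjusted p = 0.291), and TJP1, the scaffold ZO-1 beneath F11R, at 0.26 (limma adjusted p = 0.111). CD81 and CD9, the tetraspanins that carry IGSF8, were at 0.27 and -0.11 (limma adjusted p = 0.105 and 0.503). LAMA5, a laminin chain that BCAM binds, was at 0.12 (limma adjusted p = 0.395).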

How the data were processed

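MDA-MB-231 cells of 2 groups, si-CTRL and si-SAM68, gave 3 RNA-seq libraries each, grouped by their labels. In the deposited table the authors give a signal, namely reads on each FAST DB locus (build hg19) over the DESeq2 size factor of that library. The submitters' processing notes name STAR 2.4.0, SAMtools, Picard, FastQC and DESeq2. The counting program and its strand setting are not given in the sources used here, so that overlapping loci may share reads. All values above 0 were whole multiples of 1 step per library (100% within 0.01 reads), which gave back the reads. No filter had been applied (41493 loci were at 0 throughout).

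Differences were tested with limma 3.58.1 (R 4.3.3), with trended eBayes, on log2 of the normalized read count plus 1, for 18849 loci with a mean of at least 10, with Benjamini-Hochberg adjustment over all of them. On this scale the change of low genes is understated. The members and the gene lists were chosen with earlier results of these data known. Named genes are KHDRBS1, the members, up to 6 genes per direction in each of the related and partner lists, ranked by fold change (adjusted p under 0.05, mean of at least 50), and the 5 loci most like IGSF10. Other genes are named as examples of their class or as neighbours on the chromosome, and were chosen after their values were seen.

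Deviations from the group means correlated at 0.105, 0.231 and 0.125 for libraries of equal replicate number and at -0.125 to 0.007 for others. This is a weak hint of pairs by number, since deviations within a group cancel out, which pushes the other values down. The reported fit has no block. A replicate block was an alternative, beside pseudocounts of 0.1 and 5, other filters, TMM and quantile scaling, no trend, each library left out, and edgeR 4.0.16 and DESeq2 1.42.0 on the reads. These called 2026 and 2789 loci at an adjusted p under 0.05, and DESeq2 gave none for 2209. The programs were tested on simulated counts. Transcripts, 3′UTRs and seed matches come from GENCODE release 29 (GRCh38), used for sequence and length only, and siRNA sequences from the supplement of the paper. Precision is limited by 3 libraries per group.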

Additional observations from a re-analysis of the deposited data

How the results depend on the processing

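Of 548 values under alternatives, 477 kept their direction and their side of the threshold (for members direction alone, for counts and levels their size). Of the rest, 36 lost the threshold, 35 moved and 0 reversed. Member differences were not tested, so that they had no threshold to lose, and their genes were picked on this contrast. The 477 is thus no measure of how stable the calls are. The member differences and KHDRBS1 kept their sign in every fit, some of which leave the fold change as it is by construction. Regulated loci numbered 1445 and were 2240 without a filter and 1301 to 1831 with 1 library left out. Loci at an adjusted p under 0.05 numbered 2017, and were 899 without the trend and 625 to 2839 with 1 library left out, with 625 when si-SAM68 replicate 3 was dropped, 808 when si-SAM68 replicate 2 was, 923 when si-SAM68 replicate 1 was and 1103 when si-CTRL replicate 3 was.

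For the related genes, the 8 higher calls were 3 without the trend and 3 to 11 with 1 library left out (5, 4 and 3 without si-SAM68 replicates 1, 2 and 3). The 11 lower calls were 7 without a filter and 2 to 10 with 1 library left out (2 when si-SAM68 replicate 3 was dropped, 6 when si-CTRL replicate 3 was, 7 when si-SAM68 replicate 1 or 2 was), and the 14 regulated lower genes were 9 at a minimum mean of 50, where fewer genes are tested. For the partners, the 2 higher calls were 1 without the trend and 1 to 5 with 1 library left out (5 without si-CTRL replicate 1, and 1, ADAM17, without any 1 si-SAM68 library). The 0 lower calls were 2 with DESeq2, 1 without the trend (ANK2) and 0 to 4 with 1 library left out (4 without si-CTRL replicate 1, and 1, MPP3, without si-CTRL replicate 2). The cause was not tested.

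With the replicate number as a block, 1697 loci had an adjusted p under 0.05, and partners gave 1 lower call (MPP3). Among the related genes ICAM5, NTM, ROBO4 and LRIG2 lost the call, and KIRREL1 gained one (higher). Per kb of coding length in place of transcript length, IGSF10 was at 203.1. Depth limits JAM3 most, with 141 to 237 reads per library, and the joined loci of ICAM1 and F11R limit what can be said of each gene.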
